A study of Sus scrofa with 6 samples.

Results

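The genes described here are the pig MHC class II genes, named SLA-D in the pig, with the class II transactivator CIITA. They were chosen by name alone: all rows of the deposited table whose symbol begins with SLA-D, and CD74 and CIITA where listed. The rule gave 14 of 11564 genes, 13 SLA-D rows and CIITA. CD74, the invariant chain that guards newly made class II molecules, was not analysed here. The libraries came from peripheral blood mononuclear cells (PBMCs), the lymphocytes and monocytes of blood, of 6 Yorkshire pigs at 6 months of age. There were 3 libraries labelled wild type (WT) and 3 labelled leptin-overexpressing, called leptin transgenic below. The leptin pigs were made by nuclear transfer from fetal fibroblasts, which had taken up a plasmid with the pig leptin reading frame behind a pig leptin promoter and had survived neomycin. The published protocol describes a male Yorkshire fetus as the source of the fibroblasts, while the main methods speak of embryos in the plural. By their label the WT pigs carried no transgene, and how many fibroblast clones gave rise to the leptin pigs is not given in the sources used here. Whether the WT pigs were cloned is not stated either. Effects of cloning, of neomycin selection and of the donor therefore cannot be told apart from the label.

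MHC class II molecules are pairs of an alpha and a beta chain that carry peptides from proteins taken up by the cell and show them to CD4+ T cells. B cells, monocytes and dendritic cells are the class II-bearing cells of blood, and in the pig some T cells carry class II as well. The classical molecules DR and DQ reach the cell surface, DM loads the peptide in an endosomal compartment, and DO restrains DM. CIITA is the coactivator that switches on the class II genes through a complex of RFX and NF-Y proteins already bound to their promoters.

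The deposited unit was FPKM, a level per length of transcript and per library total, so genes may be ranked within a library. Since FPKM carries no counts, sequencing depth is unknown here and precision rests on 3 animals per label. Values in all FPKM columns summed to between 444888 and 503140. LEP, the gene of the transgene, was read in each library to check the labels. It was at 50.01 FPKM in WT replicate 1, listed at 0 in WT replicate 2 and at 0.118 FPKM in WT replicate 3. In the leptin transgenic libraries LEP was listed at 0 in replicate 1 and was at 18.3 and 39.3 FPKM in replicates 2 and 3. In each replicate 1 library LEP was therefore the opposite of what its label says, and the differences of the members are given with and without this pair. The defining markers fixed for T cells (CD3E, CD3D, CD3G), B cells (CD79A, CD79B, MS4A1) and monocytes (CD14, CSF1R, CD163) were above 0 in all 6 libraries, so the cell types named by the label were represented.

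No class II gene passed the test for a difference between the labels. Levels varied between animals with the same label, and the spread was wide. WT replicate 1 was low in most members, and SLA-DRB1 and SLA-DQA departed from the others by being lowest in leptin transgenic replicate 2. The comparison by label asks whether the leptin transgene went with another level of antigen presentation genes in blood cells. Log2(FPKM + 1) was fitted with limma for the 10735 genes that reached 1 FPKM in 3 or more libraries, with Benjamini-Hochberg adjustment over all of them. A fold change on this scale understates that of low genes.

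SLA-DRA (ENSSSCG00000001453, chromosome 7 from 29036551 to 29042147, as deposited, with no genome build named) encodes the alpha chain of DR and had the highest level of the members. It was at 579, 1138 and 1058 FPKM in WT replicates 1 to 3 and at 1192, 1109.95 and 796 FPKM in leptin transgenic replicates 1 to 3. WT replicate 1 was the lowest of the 6 libraries and leptin transgenic replicate 3 the next lowest, and the labels overlapped. The mean was 925 ± 303 FPKM (SD, n = 3) in WT and 1032 ± 209 FPKM (SD, n = 3) in leptin transgenic libraries. The log2 fold change was 0.20 (95% interval -0.45 to 0.85, adjusted p = 0.993, limma). Within a library SLA-DRA ranked from 47th to 126th of the 11564 genes by FPKM.

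SLA-DRB1 (ENSSSCG00000001455, chromosome 7 from 29113231 to 29125494) encodes the beta chain that pairs with SLA-DRA. Its levels were 485, 540.1 and 586 FPKM in WT replicates 1 to 3, and 625, 186 and 721 FPKM in leptin transgenic replicates 1 to 3. The 3 WT libraries lay close together, while the leptin transgenic libraries held both the lowest and the highest value. The means were 537 ± 50.7 FPKM (SD, n = 3) in WT and 510.5 ± 285 FPKM (SD, n = 3) in leptin transgenic libraries, a log2 fold change of -0.29 (95% interval -1.35 to 0.77, adjusted p = 0.993, limma). Without leptin transgenic replicate 2 the log2 fold change of SLA-DRB1 was 0.33, so its direction rested on that library.

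SLA-DQA (ENSSSCG00000001456, chromosome 7 from 29164955 to 29170803) and SLA-DQB1 (ENSSSCG00000001457, chromosome 7 from 29180890 to 29188688) encode the alpha and beta chains of DQ. SLA-DQA was at 486, 644 and 594 FPKM in WT replicates 1 to 3 and at 647, 381 and 679 FPKM in leptin transgenic replicates 1 to 3. As with SLA-DRB1, leptin transgenic replicate 2 was the lowest and replicate 3 the highest. SLA-DQB1 was at 209, 234 and 435 FPKM in WT and at 449, 251 and 147 FPKM in leptin transgenic replicates 1 to 3. Its highest values were those of WT replicate 3 and leptin transgenic replicate 1, and its lowest that of leptin transgenic replicate 3, where SLA-DQA was highest. The log2 fold change was -0.051 for SLA-DQA (95% interval -0.61 to 0.51) and -0.12 for SLA-DQB1 (95% interval -1.09 to 0.85), with adjusted p of 0.995 and 0.993 in limma. Both directions rested on single libraries. SLA-DQA was at 0.21 without leptin transgenic replicate 2 and 0.036 without WT replicate 2, and SLA-DQB1 at 0.28 without leptin transgenic replicate 3 and 0.21 without WT replicate 3.

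SLA-DMB (ENSSSCG00000001469, chromosome 7 from 29485889 to 29491702) encodes the beta chain of DM. It was at 134, 211 and 141 FPKM in WT replicates 1 to 3 and at 173, 218 and 152 FPKM in leptin transgenic replicates 1 to 3. This was the member with the smallest spread, 1.63-fold from lowest to highest library. Its log2 fold change was 0.18 (95% interval -0.34 to 0.69, adjusted p = 0.993, limma). The partner chain is listed under the human symbol HLA-DMA (ENSSSCG00000001470, chromosome 7 from 29500106 to 29504539) and so lies outside the naming rule. HLA-DMA was at 181, 321 and 273 FPKM in WT and at 304, 299.7 and 234 FPKM in leptin transgenic replicates 1 to 3, a log2 fold change of 0.14 (adjusted p = 0.993, limma).

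SLA-DOB (ENSSSCG00000001465, chromosome 7 from 29396909 to 29404502) and SLA-DOA (ENSSSCG00000001472, chromosome 7 from 29545478 to 29549278) encode the chains of DO, which is best known from B cells. SLA-DOB was at 4.73, 38.1 and 32.9 FPKM in WT replicates 1 to 3 and at 29.6, 24.3 and 12.3 FPKM in leptin transgenic replicates 1 to 3. WT replicate 1 stood at 16.0% of the median of the other 5 libraries, and leptin transgenic replicate 3 was next lowest. SLA-DOA was at 8.15, 25.8 and 25.5 FPKM in WT and at 22.4, 17.6 and 18.9 FPKM in leptin transgenic replicates 1 to 3. Here WT replicate 1 alone was low, at 36.4% of the median of the others. The log2 fold changes were 0.15 for SLA-DOB (95% interval -1.45 to 1.74) and 0.14 for SLA-DOA (95% interval -0.76 to 1.04), with adjusted p of 0.995 and 0.993 in limma.

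CIITA (ENSSSCG00000007901, chromosome 3 from 33125171 to 33145562) is the 1 member outside chromosome 7. It was at 17.2, 31.0 and 44.8 FPKM in WT replicates 1 to 3 and at 33.2, 26.9 and 29.7 FPKM in leptin transgenic replicates 1 to 3. The leptin transgenic libraries lay close together (29.9 ± 3.13 FPKM, SD, n = 3) inside a wider WT range (31.0 ± 13.8 FPKM, SD, n = 3). The log2 fold change was 0.046 (95% interval -0.67 to 0.76, adjusted p = 0.997, limma). Levels of SLA-DRA were 23.6 to 41.2 times those of CIITA within the same library.

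The remaining members are further class II beta chain rows on chromosome 7, at low levels. SLA-DRB4, SLA-DRB5 and SLA-DQB2 are pseudogenes in NCBI RefSeq (assembly Sscrofa11.1), SLA-DRB2, SLA-DRB3 and SLA-DOB2 were not matched there by symbol, and the deposited table gives none of the 6 a biotype. Reads of SLA-DRB1 can align to such near copies, so the split between these rows is uncertain. SLA-DRB2 (ENSSSCG00000001454, 29093968 to 29105694) was at 5.16, 28.7 and 34.6 FPKM in WT replicates 1 to 3 and at 33.3, 52.8 and 12.1 FPKM in leptin transgenic replicates 1 to 3. SLA-DRB5 (ENSSSCG00000001464, 29358810 to 29366982) followed the same order at both ends, from 8.97 FPKM in WT replicate 1 to 37.8 FPKM in leptin transgenic replicate 2. SLA-DRB4 (ENSSSCG00000031010, 29057439 to 29068004) ranged from 6.28 to 22.0 FPKM and SLA-DRB3 (ENSSSCG00000031032, 29079041 to 29083089) from 0.776 to 7.12 FPKM, both between the same libraries. All 4 were thus highest where SLA-DRB1 was lowest. SLA-DOB2 (ENSSSCG00000030988, 29352312 to 29353267) was at 0.271, 7.09 and 6.72 FPKM in WT and at 2.61, 4.83 and nearly 0 FPKM in leptin transgenic replicates 1 to 3, and its locus overlaps the row SBAB-554F3.8. SLA-DQB2 (ENSSSCG00000030750, 29179336 to 29180112) reached 1.79 FPKM at most, was listed at 0 in WT replicate 1 and leptin transgenic replicate 2, and was the 1 member below the filter. Log2 fold changes of the 5 tested rows of this group ran from -0.64 (SLA-DOB2, 95% interval -2.55 to 1.28) to 0.63 (SLA-DRB2, 95% interval -1.03 to 2.29). Without leptin transgenic replicate 3 that of SLA-DOB2 was 0.094, and without WT replicate 1 that of SLA-DRB2 was -0.17. The pseudocount also moved the low rows. With 0.1 in place of 1, SLA-DOB2 was at -1.26, and with 5 at -0.33. SLA-DRB3, at 0.63 with a pseudocount of 1, was at 0.86 with 0.1 and at 0.32 with 5.

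**Figure D1:**
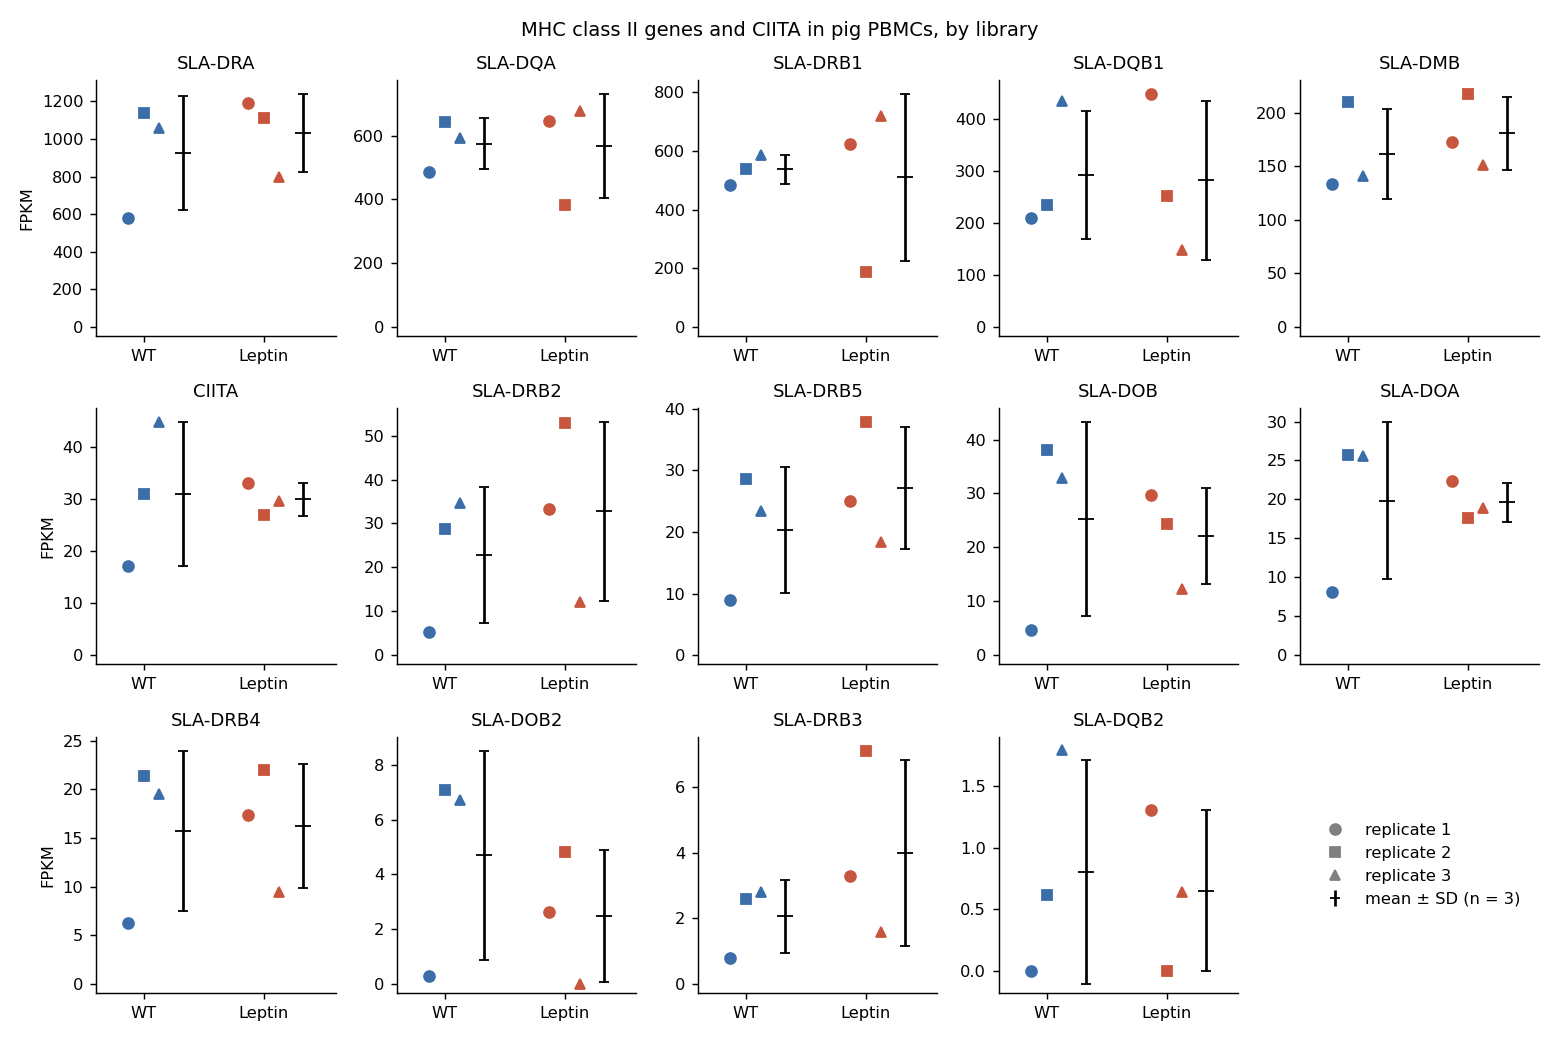
FPKM of the 14 members in each library, 1 panel per gene with its own axis from about 0, WT in blue and leptin transgenic in red, with the marker shape giving the replicate number and black bars the mean ± SD (n = 3). The labels overlap in every panel, and the blue circle of WT replicate 1 lies at the bottom of 10 of the 14. In 1 of these, SLA-DQB2, it is level with leptin transgenic replicate 2 at 0.

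By mean FPKM over the 6 libraries the order was SLA-DRA (979), SLA-DQA (572), SLA-DRB1 (524), SLA-DQB1 (287), SLA-DMB (171), CIITA (30.5), SLA-DRB2 (27.8), SLA-DRB5 (23.7), SLA-DOB (23.7), SLA-DOA (19.7), SLA-DRB4 (16.0), SLA-DOB2 (3.59), SLA-DRB3 (3.02) and SLA-DQB2 (0.727). SLA-DRA was above SLA-DQA in all 6 libraries, and SLA-DMB was above CIITA in all 6 with no overlap of their ranges. That gap parted SLA-DRA, SLA-DQA, SLA-DRB1, SLA-DQB1 and SLA-DMB from the other 9 members, the further DRB and DQB rows among them. SLA-DQA and SLA-DRB1 kept their order in 5 of 6 libraries, SLA-DRB1 and SLA-DQB1 in 5 of 6, and SLA-DQB1 and SLA-DMB in 5 of 6, with overlapping ranges. From CIITA down to SLA-DRB4 each gene was above the next in 3 to 5 of the 6 libraries, so those neighbours did not differ beyond their spread. SLA-DRB4 was above SLA-DOB2 in all 6, SLA-DOB2 was above SLA-DRB3 in 2 and SLA-DRB3 above SLA-DQB2 in all 6, each with overlapping ranges.

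Across the 13 members tested, 0 had an adjusted p under 0.05 in limma, where 0.00932% of all genes tested did, and 0 had an unadjusted p under 0.05, where 3.18% of all genes did. The smallest unadjusted p was 0.192 (SLA-DRB3, limma), and the exact two-sided permutation test over libraries gave p between 0.4 and 1 for the 14 members, with 0.1 the smallest it can give. The labels overlapped in all 13, with 0 showing no overlap, against 7.63% of all genes tested. The point estimates were higher in leptin transgenic libraries for 9 members and lower for 4. Their median log2 fold change was 0.14, beside 0.059 over all genes tested. The 95% intervals were wide. That of SLA-DMB, the narrowest, still held differences from -0.34 to 0.69, so the data do not show that levels were alike.

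The sign of the median and the balance of higher and lower members rested on WT replicate 1. Without both replicate 1 libraries, where LEP went against the label, the median log2 fold change of the 13 members was -0.39, beside -0.032 over all genes, with 3 members higher and 10 lower in leptin transgenic libraries. SLA-DOB then had a log2 fold change of -0.99 (95% interval -1.81 to -0.17) and SLA-DOA of -0.47 (95% interval -0.90 to -0.039), with adjusted p of 0.999 for both in limma. These 2 of 13 had an unadjusted p under 0.05 and were lower, where 1.32% of all genes were. SLA-DRA was at -0.22 without the pair, SLA-DQA at -0.28, SLA-DRB1 at -0.62 and SLA-DQB1 at -0.73, and CIITA at -0.39. SLA-DRB2 was at -0.29, SLA-DRB4 at -0.47 and SLA-DOB2 at -1.71. The members still above 0 were SLA-DMB (0.078), SLA-DRB5 (0.028) and SLA-DRB3 (0.31), each closer to 0 than with all 6 libraries. In 4 of 13 the leptin transgenic pair lay wholly below the WT pair, where 15.5% of all genes did. Leaving out leptin transgenic replicate 1 alone kept the median above 0, at 0.044, with 7 higher and 6 lower. The median was 0.38 without WT replicate 2, 0.35 without WT replicate 3 and 0.29 without leptin transgenic replicate 3. In these fits 10, 10 and 11 of the 13 were higher. Without leptin transgenic replicate 2 the median was 0.14, with 10 higher. Leaving out WT replicate 1 alone gave a median of -0.31, again with 10 of the 13 lower. In 3 of the 13 the leptin transgenic libraries then lay wholly below, where 7.0% of all genes did, and 0 of the 13 had an unadjusted p under 0.05. Leaving out leptin transgenic replicate 3 gave 1 of the 13 such a p, SLA-DRB3, which was higher, as 2.02% of all genes were in that fit. Its log2 fold change was 1.03 (95% interval 0.14 to 1.92, adjusted p = 0.999, limma).

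**Figure D2:**
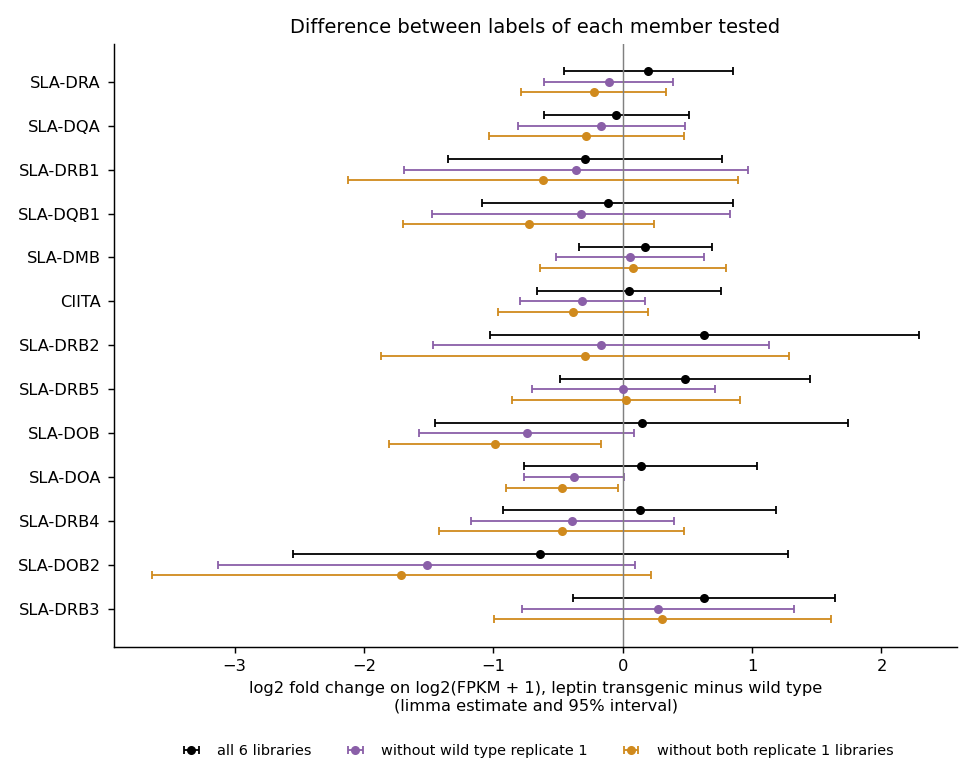
Log2 fold change on log2(FPKM + 1), leptin transgenic minus WT, of the 13 members tested, with the limma estimate as a point and the 95% interval as a bar, for all 6 libraries (black), without WT replicate 1 (purple) and without both replicate 1 libraries (orange). All black intervals cross 0, and 10 of 13 orange points lie to its left.

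The larger differences were between animals. The SD of log2(FPKM + 1) over the 6 libraries had a median of 0.67 in the 13 members tested and 0.22 in all genes tested. The SD of each of the 13 was above that median of all genes, from percentile 73.1 (SLA-DMB) to percentile 99.4 (SLA-DOB2). The spread between libraries of 1 label was of the same size, with a median within-label SD of 0.70 in the members and 0.22 in all genes. From the lowest to the highest library SLA-DRB2 covered 10.2-fold, SLA-DRB3 9.17-fold, SLA-DOB 8.06-fold and SLA-DRA 2.06-fold. Without WT replicate 1 these ranges were 4.35-fold, 4.54-fold, 3.10-fold and 1.498-fold. In that alternative, chosen after seeing the data, the median SD was 0.47 in the members and 0.19 in all genes, and each of the 13 was still above the median of all genes.

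**Figure D3:**
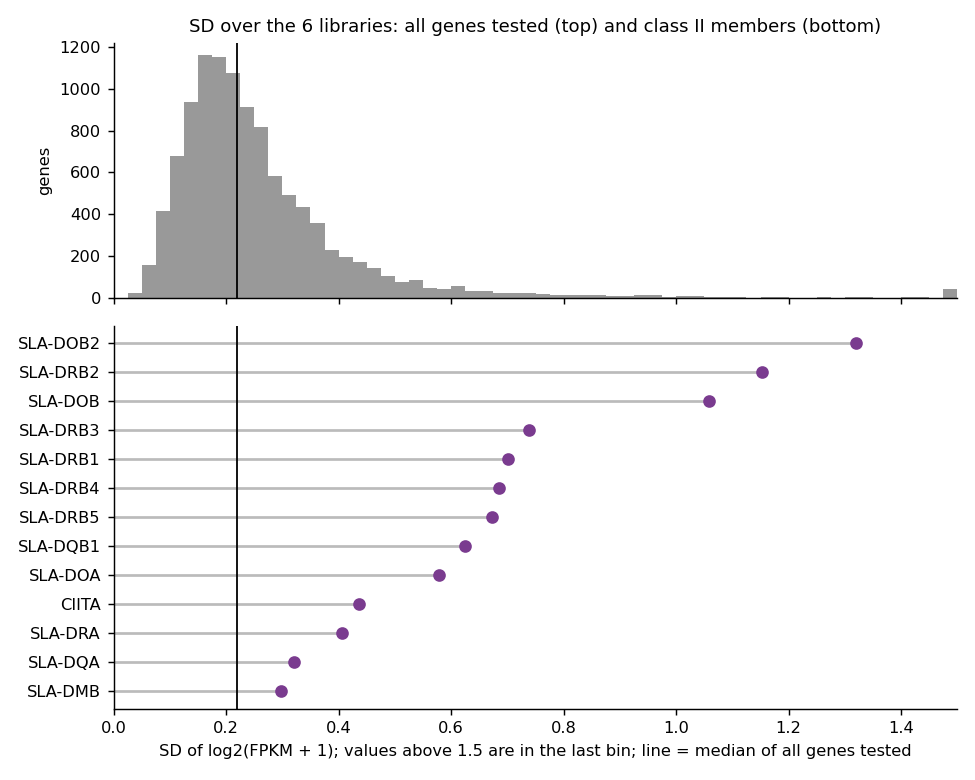
Top, histogram of the SD of log2(FPKM + 1) over the 6 libraries for the 10735 genes tested, and bottom, the same SD for each of the 13 class II members tested. The vertical line is the median of all genes tested (0.22), and the 13 members lie to its right.

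WT replicate 1 was the lowest library in 9 of the 13 members tested, where it was the lowest for 37.5% of all genes tested. It was under 50% of the median of the other 5 libraries in 8 of the 14 members, a count given without the share of all genes under that cut. The mean deviation of the 13 members from their own means was -0.92 on the log2 scale in WT replicate 1 and -0.38 in leptin transgenic replicate 3, and lay between 0.24 and 0.39 in the other 4 libraries. Both low libraries carried LEP RNA, as did leptin transgenic replicate 2, whose mean deviation was 0.24. Whether LEP had a part in these levels was not tested. WT replicate 1 also differed from the other libraries in its marker lists, which are given below. The 13 SLA-D rows together took 0.433% of the summed FPKM in WT replicate 1, 0.460% in leptin transgenic replicate 2 and 0.549% in leptin transgenic replicate 3, and between 0.644% and 0.659% in the rest.

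Most members varied in the same direction across libraries. Over the 6 libraries, 64 of the 78 pairs of tested members had a positive Pearson correlation of log2(FPKM + 1) and 14 a negative one, with a median of 0.63. The 14 negative pairs all held SLA-DRB1 or SLA-DQA, and some others were near 0, such as SLA-DQB1 with SLA-DMB (0.0026) and SLA-DMB with CIITA (0.12). SLA-DRA and SLA-DOB had r = 0.97, and SLA-DOA and CIITA had r = 0.92. SLA-DRB1 went with SLA-DQA (r = 0.93) but had a negative r with 8 of the other 11, such as -0.69 with SLA-DRB3. These are descriptions over 6 points that share library totals, and the low value of WT replicate 1 enters most of them.

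Of the marker lists, those of B cells and dendritic cells were lowest in WT replicate 1, as most members were. The 9 of 12 B cell markers listed summed to 398, 731 and 717 FPKM in WT replicates 1 to 3 and to 705, 590.4 and 613 FPKM in leptin transgenic replicates 1 to 3. WT replicate 1 was the lowest library for 8 of these 9 genes. The 4 of 12 dendritic cell markers listed also had their lowest sum there, with 43.3 FPKM against 67.5 to 137 FPKM elsewhere. Most of that sum was CD1A (17.2 FPKM) and FCER1A (18.3 FPKM). WT replicate 1 was the lowest library for 3 of these 4 genes. The exception was XCR1, at 5.68 FPKM there and 4.60 FPKM in leptin transgenic replicate 3. Monocyte markers (10 of 12 listed) summed to 655 to 1217 FPKM in WT and 874 to 1406 FPKM in leptin transgenic libraries, and T cell markers (11 of 12) to 1023 to 1349 and 924 to 1586 FPKM, with no low value in WT replicate 1. The neutrophil list (4 of 8, S100A8, S100A9, LTF and MMP8) summed to 1766 FPKM in WT replicate 1, 606 FPKM in leptin transgenic replicate 2 and 162 to 372 FPKM in the other 4 libraries. The red cell list (3 of 8) summed to 219 FPKM in WT replicate 1 and to 21.8 to 103 FPKM elsewhere. Natural killer and cytotoxic cell markers (7 of 8) ran from 245 to 624 FPKM and platelet markers (7 of 8) from 193 to 566 FPKM, both highest in WT replicate 1. The part of these cell types in the class II levels was not tested, and in bulk RNA fewer cells of a type and less RNA per cell cannot be told apart.

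Relative levels depended on the marker chosen. Set against CD79A, a B cell receptor component, SLA-DRA was no longer lowest in WT replicate 1. The ratio of SLA-DRA to CD79A was 4.36, 4.58 and 4.73 in WT replicates 1 to 3 and 5.13, 6.13 and 4.01 in leptin transgenic replicates 1 to 3. Against each of the 9 B cell markers in turn, SLA-DRA was lowest in WT replicate 1 for 1, BLK. Set against CD14, a monocyte marker, it was lowest there, with a ratio of 1.99 against 4.22 to 10.6 in the other 5 libraries. CIITA per CD79A was 0.129 in WT replicate 1, within the range of 0.125 to 0.200 of all 6 libraries. SLA-DOB per CD79A stayed low, at 0.0357 in WT replicate 1 and 0.0621 in leptin transgenic replicate 3, against 0.128 to 0.154 in the other 4 libraries. SLA-DOA per CD79A was 0.0615 in WT replicate 1 and 0.0953 to 0.114 in the others. Over the same 9 B cell markers, SLA-DOB was lowest in WT replicate 1 for all 9, and SLA-DOA for 6, the exceptions being FCER2, FCRL1 and CD72.

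**Figure D4:**
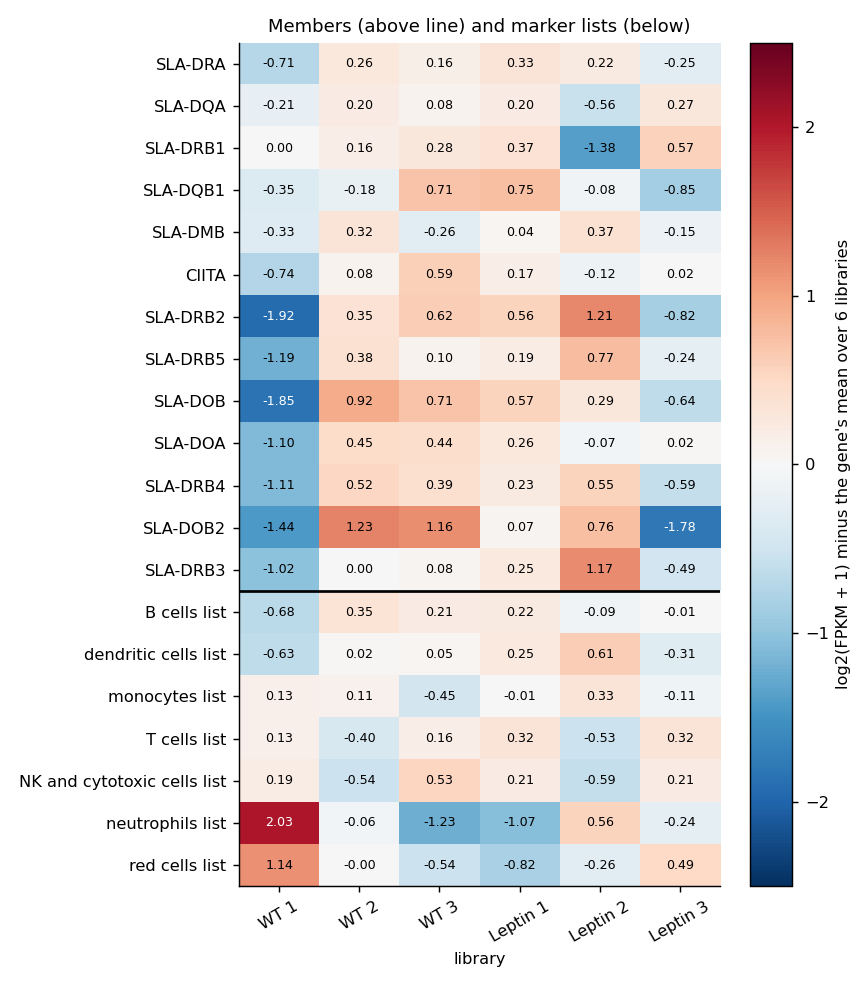
Log2(FPKM + 1) of each tested member minus its own mean over the 6 libraries (rows above the line, value printed in each cell, colour from blue for low to red for high), with the mean deviation of the tested genes of 7 marker lists below the line. WT replicate 1 is low in most members and in the B cell list and high in the neutrophil list (2.03), and SLA-DRB1 is lowest in leptin transgenic replicate 2 (-1.38).

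The DR and DQ chains that pair in 1 molecule did not keep a fixed ratio of FPKM. How well the reads of each animal matched the reference rows was not tested, so these ratios need not be ratios of RNA. SLA-DRB1 per SLA-DRA was 0.838, 0.475 and 0.554 in WT replicates 1 to 3 and 0.524, 0.167 and 0.906 in leptin transgenic replicates 1 to 3, a 5.41-fold range. The low ratio was that of leptin transgenic replicate 2, and it was still the lowest, at 0.275, with the FPKM of all 5 SLA-DRB rows added together. Adding the FPKM of rows of unlike length does not restore reads placed on another row, and where reads were placed was not tested. SLA-DRB1 made up 60.8% of the SLA-DRB FPKM in that library and 86.9% to 95.8% in the other 5. SLA-DQB1 per SLA-DQA was 0.429, 0.363 and 0.732 in WT and 0.694, 0.660 and 0.217 in leptin transgenic replicates 1 to 3. The library with the lowest DQ ratio, leptin transgenic replicate 3, was the one with the highest DR ratio. SLA-DMB per HLA-DMA was steadier, from 0.516 to 0.736.

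**Figure D5:**
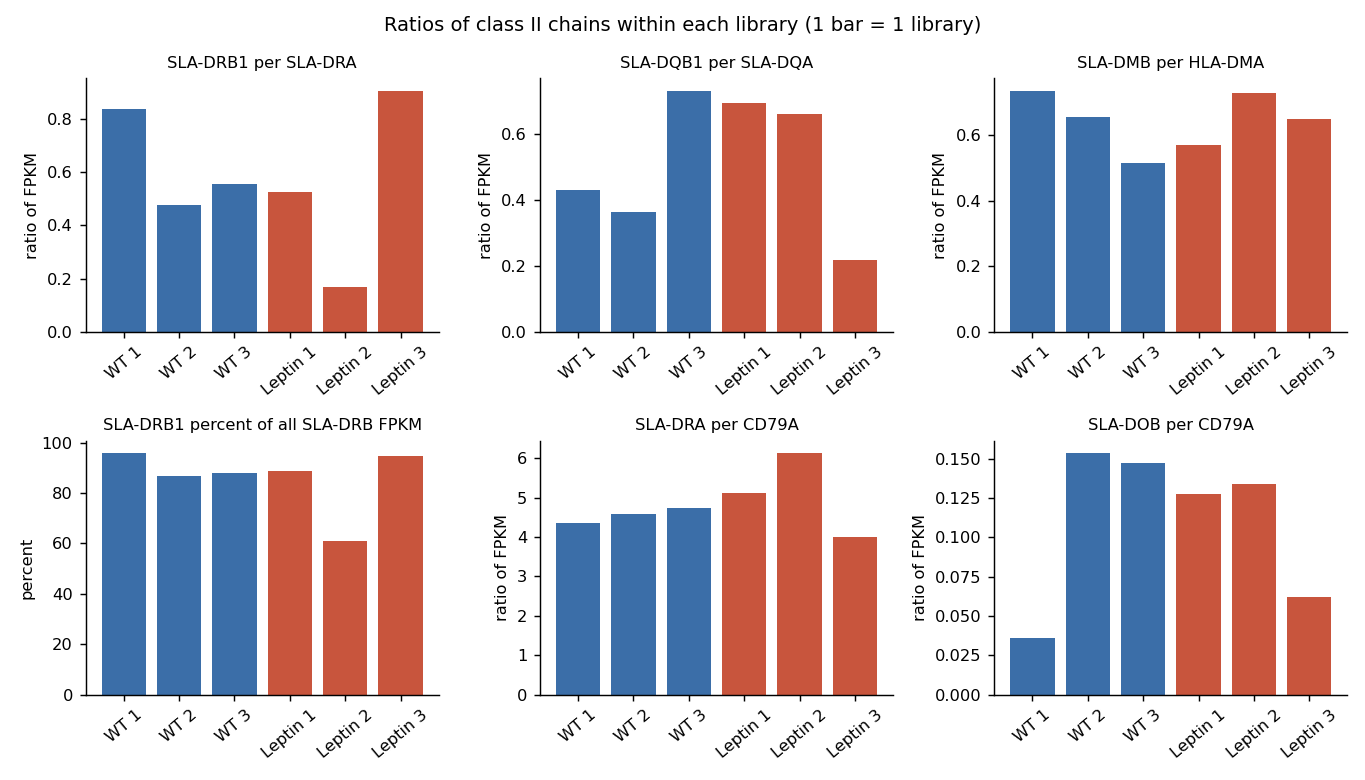
Ratios of FPKM within each library, WT in blue and leptin transgenic in red, 1 bar per library, for SLA-DRB1 per SLA-DRA, SLA-DQB1 per SLA-DQA, SLA-DMB per HLA-DMA, the percentage of SLA-DRB FPKM in SLA-DRB1, and SLA-DRA and SLA-DOB per CD79A. Leptin transgenic replicate 2 has the lowest SLA-DRB1 ratio (0.167) and leptin transgenic replicate 3 the lowest SLA-DQB1 ratio (0.217).

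Other genes of the class II pathway were read from 3 lists, 45 genes listed and 44 tested. In limma 0 of the 44 had an adjusted p under 0.05, and 1, CD80, had an unadjusted p under 0.05 and was lower, where 1.19% of all genes tested were. In 2 of the 44, CD80 and CD86, the leptin transgenic libraries lay wholly below the WT libraries, where 2.63% of all genes did. CD80 (ENSSSCG00000011899) and CD86 (ENSSSCG00000011877) are the costimulatory ligands of CD28 on antigen-presenting cells. CD80 was at 12.1, 16.0 and 16.4 FPKM in WT and at 10.1, 7.598 and 10.6 FPKM in leptin transgenic replicates 1 to 3, a log2 fold change of -0.60 (95% interval -1.03 to -0.18, adjusted p = 0.993, limma). CD86 was at 29.6, 30.3 and 26.8 FPKM in WT and at 24.5, 25.7 and 22.2 FPKM in leptin transgenic replicates 1 to 3, a log2 fold change of -0.25 (95% interval -0.57 to 0.074, adjusted p = 0.993, limma). Neither passed the adjusted threshold.

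The list of class II transcription factors had 13 genes tested, with a median log2 fold change of 0.050. RFX5, a subunit of the complex that CIITA binds, was at 11.95, 20.1 and 25.3 FPKM in WT and at 24.0, 18.5 and 22.1 FPKM in leptin transgenic replicates 1 to 3, lowest in WT replicate 1 like CIITA. Other parts of that complex were not: RFXAP was lowest in leptin transgenic replicate 2, and NFYB and NFYC in WT replicate 2. SPI1, the myeloid and B cell factor PU.1, was instead highest in leptin transgenic replicate 2 (1062 FPKM) and next in WT replicate 1 (833 FPKM). IRF1, an interferon-induced factor that acts on CIITA, had a log2 fold change of 0.31 (adjusted p = 0.993, limma). Peptide loading and trafficking genes numbered 22, with a median of 0.057. Their highest, CD63 (368 ± 69.4 FPKM, SD over all 6 libraries), CTSZ (246 ± 41.2) and CTSS (232 ± 42.1), a tetraspanin and a pair of cathepsins of which CTSS cuts the invariant chain, had log2 fold changes of 0.18, 0.21 and 0.17 (adjusted p = 0.993 for each, limma). With 1 library left out these fell as low as 0.053 for CD63 and 0.033 for CTSS, both without leptin transgenic replicate 2, and 0.074 for CTSZ without WT replicate 1. In the costimulation list, CD40, the receptor for T cell help on B cells, was at 25.3, 54.4 and 45.1 FPKM in WT and at 41.8, 40.5 and 37.9 FPKM in leptin transgenic replicates 1 to 3, again lowest in WT replicate 1. CD4, the coreceptor that binds class II, had a log2 fold change of 0.25 (adjusted p = 0.993, limma). With 1 library left out, that of CD4 ran from 0.078 without WT replicate 2 to 0.47 without WT replicate 1.

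Of the 7096 tested genes outside the group that have a symbol, the 8 whose log2(FPKM + 1) followed the mean of the 13 members most closely over the 6 libraries were TANK (r = 0.99), PSMC3, NEK4, ERMARD, LARGE2, ADORA3, PGLS and EIF4A1 (r = 0.97). TANK was at 22.7 FPKM in WT replicate 1, 24.6 FPKM in leptin transgenic replicate 3 and 27.0 to 28.2 FPKM in the other 4 libraries, the same order at both low ends on a far smaller scale. HLA-DMA was 26th by this measure (r = 0.96), CD79B 58th (r = 0.94) and CD40 160th (r = 0.91). This measure rests on 6 points and is given as a description.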

How the data were processed

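RNA-seq had been run on PBMC RNA of 6 pigs, 1 strand-specific TruSeq library per animal. According to the published methods, the authors aligned paired-end reads with Bowtie to the Ensembl transcriptome and quantified genes with RSEM. The submitters' processing notes name FastQC, STAR 2.5, Cuffnorm and DESeq 1.22.1 instead, so the steps behind the deposited FPKM values are not certain. Deposited log2 fold change, p-value and FDR columns hold a comparison by the authors and were left unused. Animal codes in the labels tied each FPKM column to its sample.

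A pseudocount of 1 was added and log2 values were fitted with limma 3.58.1 (lmFit and eBayes, R 4.3.3) on genotype alone, two-sided, over genes that reached 1 FPKM in 3 or more libraries. Permutation tests were exact. Ratios and summaries were computed in Python 3.11.15. The fit was tested on simulated data.

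Members and lists were chosen with earlier results of these data known. Genes named are all members, pathway genes with an unadjusted p under 0.05 or, since fewer than 5 were, also the 3 highest of each list, and the 8 genes most like the members. RFX5 and HLA-DMA were added after their values were seen, and 1 gene that the rule names is not reported here. Alternatives were the pseudocount, the filter, median-of-ratios scaling, no moderation, a variance trend, the replicate number as a block, and libraries left out.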

Additional observations from a re-analysis of the deposited data

How the results depend on the processing

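In 15 alternative fits, 0 of the 13 members had an adjusted p under 0.05 in limma (lowest adjusted p 0.647), and 22 of their log2 fold changes changed sign, out of 130 that the alternatives moved at all (5 of the fits leave the estimate as it is). SLA-DMB, SLA-DRB3 and SLA-DRB5 kept their sign but not their size, falling to 0.033 and 0.20 without leptin transgenic replicate 2 and to 0.0033 without WT replicate 1. The cause of the other changes was not tested, beyond the library left out.

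Without both replicate 1 libraries, which leaves 2 per label, 2 members had an unadjusted p under 0.05 and were lower, where 1.32% of all genes were. In 4 members the leptin transgenic libraries lay wholly below, where 15.5% of all genes did. The log2 fold change turned to -0.22 for SLA-DRA, -0.39 for CIITA, -0.29 for SLA-DRB2, -0.99 for SLA-DOB and -0.47 for SLA-DOA. It also turned to -0.47 for SLA-DRB4, -0.33 for CD40, -0.15 for RFX5 and -0.16 for HLA-DMA. Median-of-ratios scaling turned CIITA to -0.017 and CD40 to -0.051. Without moderation, 2 pathway genes in place of 1 had an unadjusted p under 0.05. The share of all genes with such a p in that fit is not given here, so nothing is read from this count.

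With 1 library left out, 0 to 1 members had an unadjusted p under 0.05, 0 to 3 showed no overlap, and 1 to 2 pathway genes had an unadjusted p under 0.05. Of all genes, 2.34% to 7.99% had such a p and 12.3% to 26.8% showed no overlap in these fits. Over these 6 fits the log2 fold change ran from -0.11 to 0.38 for SLA-DRA, from -0.20 to 0.21 for SLA-DQA, from -0.65 to 0.33 for SLA-DRB1, from -0.52 to 0.28 for SLA-DQB1, from -0.31 to 0.35 for CIITA and from -0.17 to 1.20 for SLA-DRB2. It ran from -0.74 to 0.64 for SLA-DOB, from -0.38 to 0.40 for SLA-DOA, from -0.39 to 0.46 for SLA-DRB4, from -1.52 to 0.094 for SLA-DOB2 and from -0.042 to 0.30 for SPI1. For CD40 it was -0.30 to 0.23, for RFX5 -0.072 to 0.44 and for HLA-DMA -0.095 to 0.32. The values below 0 of SLA-DRA, SLA-DRB2 and RFX5 came without WT replicate 1.

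Replicate numbers do not mark a shared animal. Deviations from group means correlated at -0.28, 0.13 and -0.0073 between libraries of 1 number, and WT replicate 3 correlated best with leptin transgenic replicate 1 (0.34), so the numbers were not taken as pairs. With the replicate block, 0 members had an unadjusted p under 0.05. The median log2 fold change, 0.14, cannot move under a block in this balanced design. FPKM without counts leaves the low rows (SLA-DQB2, SLA-DRB3, SLA-DOB2) with unknown counting error.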

Other observations

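A pair of rows beside the SLA-DQ genes carries no symbol in the deposited table. ENSSSCG00000001458 (chromosome 7 from 29205457 to 29212886) was at 6.07, 17.6 and 14.2 FPKM in WT replicates 1 to 3 and at 12.9, 18.9 and 9.59 FPKM in leptin transgenic replicates 1 to 3. ENSSSCG00000001459 (chromosome 7 from 29241939 to 29249407), which the reference table of gene names calls HLA-DOB, was at 6.93, 13.1 and 14.9 FPKM in WT replicates 1 to 3 and at 16.2, 11.3 and 14.5 FPKM in leptin transgenic replicates 1 to 3. Like most members, both were lowest in WT replicate 1.

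In the class I region, looked at after the class II values were seen, SLA-1 was at 50.2 FPKM in WT replicate 1, 424 FPKM in leptin transgenic replicate 3 and 778 to 1217 FPKM in the other 4 libraries. SLA-8 was at 275 FPKM in leptin transgenic replicate 2, the library with the lowest SLA-DRB1, and at 51.5 to 80.9 FPKM in the other 5. These are values of single libraries and were not tested.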
